A study of Mus musculus with 6 samples.

Results

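Cells sense oxygen through the hypoxia-inducible factor (HIF) pathway, and the data described here are the transcript levels of 10 of its genes in stromal cells that shared a dish with leukaemia cells. The genes are the HIF alpha subunits Hif1a, Epas1 (which encodes HIF-2α) and Hif3a, their dimer partner Arnt, the prolyl hydroxylases Egln1, Egln2 and Egln3, the asparaginyl hydroxylase Hif1an, the ubiquitin ligase subunit Vhl and Ankrd37, a small ankyrin repeat protein known as a HIF target. They were taken as a named list, and all 10 were present among the 35968 mouse genes with a transcript in the files. Of these genes, 13221 passed a filter on low counts and were tested, among them 8 of the 10. Hif3a and Egln3 did not pass it and are described by their counts.

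RNA was sequenced from MS-5, a mouse bone marrow stromal cell line that can support blood cell precursors, in 2 groups of 3 libraries. One group was MS-5 cells cultured alone (MS-5 only, libraries MO1, MO2 and MO3). The other was MS-5 cells kept for 24 hr with SKM-1, a human acute myeloid leukaemia (AML) cell line, plated at 4 AML cells per stromal cell and 750000 SKM-1 cells per ml onto a confluent stromal layer (co-culture, MC1, MC2 and MC3). All cells grew in RPMI medium with fetal bovine serum, and after co-culture the leukaemia cells were washed and mildly trypsinised away before the stromal layer was lysed. The oxygen level in the cultures was not among the measurements used here. Both arms rest on a single stromal line, and the co-culture arm on a single AML line. Nothing in the labels says that the 3 libraries of a group came from separate cultures, so p-values measure the spread between these libraries, which may be technical.

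In cells with enough oxygen the prolyl hydroxylases mark HIF alpha proteins, Vhl recognises the marked protein and the proteasome destroys it, while Hif1an blocks the recruitment of coactivators to what remains. When oxygen or the hydroxylases' cofactors are short, the alpha subunit persists, pairs with Arnt and binds DNA at hypoxia response elements whose core reads ACGTG or GCGTG. Regulation of the alpha subunits is therefore largely at the level of protein, which RNA sequencing does not see. Egln1, Egln3 and Ankrd37 are themselves classical HIF targets, and induction of the hydroxylases is a negative feedback on the pathway.

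The stretches upstream of 4 genes are shown: Egln1 and Ankrd37, which were higher in co-culture, Egln3, which was counted only there, and Hif1an, which was the lowest of the tested genes by fold change. Each is the 250 bases before the RefSeq start site (GRCm38.p6), 5′ to 3′ on the gene's strand, with every ACGTG or GCGTG on either strand in capitals (CACGT and CACGC as read here). The Egln1 stretch is chr8:124949255-124949504 (minus strand), Ankrd37 is chr8:45999851-46000100 (minus), Egln3 is chr12:54203875-54204124 (minus) and Hif1an is chr19:44562604-44562853 (plus).
Egln1: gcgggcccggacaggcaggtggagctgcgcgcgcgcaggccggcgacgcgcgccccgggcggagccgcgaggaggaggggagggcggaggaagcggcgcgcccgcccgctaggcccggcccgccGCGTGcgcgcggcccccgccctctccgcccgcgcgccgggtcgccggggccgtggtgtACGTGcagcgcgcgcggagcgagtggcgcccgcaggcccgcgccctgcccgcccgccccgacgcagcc
Ankrd37: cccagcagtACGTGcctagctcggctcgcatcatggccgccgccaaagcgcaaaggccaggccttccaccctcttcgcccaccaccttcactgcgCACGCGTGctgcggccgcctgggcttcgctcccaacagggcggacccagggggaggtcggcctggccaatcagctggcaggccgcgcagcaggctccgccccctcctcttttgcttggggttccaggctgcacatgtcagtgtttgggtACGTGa
Egln3: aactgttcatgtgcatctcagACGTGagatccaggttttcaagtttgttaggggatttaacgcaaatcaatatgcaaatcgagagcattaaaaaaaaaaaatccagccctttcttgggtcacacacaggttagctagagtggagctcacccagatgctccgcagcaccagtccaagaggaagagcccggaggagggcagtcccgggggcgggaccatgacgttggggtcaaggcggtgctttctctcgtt
Hif1an: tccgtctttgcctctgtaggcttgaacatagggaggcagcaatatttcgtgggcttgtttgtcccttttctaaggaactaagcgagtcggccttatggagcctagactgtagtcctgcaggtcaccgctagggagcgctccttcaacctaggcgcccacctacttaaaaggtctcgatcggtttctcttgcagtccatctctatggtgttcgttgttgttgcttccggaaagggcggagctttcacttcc

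Egln1 carried 2 matches, at -126 and -68 from the start site, and Ankrd37 carried 4, at -241, -155, -152 and -6, of which the middle pair lie on opposite strands and overlap. Egln3 had 1 match at -229, and Hif1an and Vhl had none. The most matches were in Egln2, with 6 in one of its windows and 1 in the other, and Hif1a had 3, Hif3a 2 and Arnt 1, so the number of matches did not follow which genes were called. In windows of 300 bases (250 before to 50 after the start), RefSeq gave 10 promoters for 9 of the genes, and 8 of these windows held a match. Over all 32851 mouse promoters of that length 43.8% held at least 1 match, 20.6% at least 2 and 3.86% at least 4. The GENCODE M21 start of the leading Egln1 transcript lies 70 bases upstream of the RefSeq start, so that the match at -68 falls inside that transcript. For Ankrd37-201 it lies 17 bases upstream, so the match at -6 falls inside that transcript too. A match is a description of letters and not a measured binding site.

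Sequencing depth was 23978881 to 27182453 estimated counts for MS-5 only and 26258451 to 35694987 for co-culture. MO2 and MC3 stood apart from the other 4 libraries, with 65170 and 66456 transcripts counted against 51533 to 57350 and 6.07% and 5.92% mitochondrial counts against 10.6% to 13.2%. No label explains this, and since it touches 1 library of each group, the co-culture to MS-5 only ratio of CPM is given beside each tested gene of the 10 within this pair and among the other 4 libraries. Stromal markers were high, with a summed level over 10 genes of 7279 to 11207 CPM (counts scaled to a common library total), although Nt5e was at or near 0 and Thy1 low in every library. The sum over 12 leukocyte markers was 14.4, 25.5 and 27.1 CPM in MO1 to MO3 and 47.9, 209.3 and 54.3 in MC1 to MC3, with 4, 2 and 3 of the 12 at 0 in the former and 0, 1 and 1 in the latter. Of the 8 leukocyte markers tested, 6 were called higher in co-culture (3.71% of all genes were), and Cd68 and Cd53 were not. Cd68 alone gave 10.86, 19.13 and 19.13 CPM of the sums in MO1 to MO3, and its log2 fold change was -0.34 by edgeR. The 6 called higher had log2 fold changes of 4.51 (Csf1r) or more by edgeR. They had 0 to 17 counts in each MS-5 only library, so the sums understate their rise. They passed the low-count filter through the co-culture libraries, so their calls are a description and not a test. In such bulk libraries a change in the mix of cells and a change in RNA per cell cannot be told apart. SKM-1 is a human line and the reads were counted on mouse transcripts only, so human reads that matched a mouse transcript cannot be told apart from mouse reads in any co-culture library.

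Expression of Egln1 and Ankrd37 was higher in MS-5 cells from co-culture, and no tested gene of the 10 was called lower. By edgeR's quasi-likelihood test, at a Benjamini-Hochberg adjusted p under 0.1, 2 of the 8 were called higher, against a background of 3.71% of all genes tested, and 0 were called lower, against 0.666%. The 0 lower calls are by edgeR, where 2 of the 8 had an unadjusted p under 0.05 (1885 of all 13221 genes did), both of them the genes called higher. DESeq2 likewise called 0 lower (6.88% of all genes were called higher by DESeq2 and 2.71% lower). Both calls were lost on leaving out MO1, MO2, MO3 or MC1. Over all genes the calls fell from 579 to 0 without MO1, MO2 or MO3, and to 283 without MC1. The median log2 fold change of the 8 was 0.20, beside -0.02 over all genes tested. The 10 genes were chosen with earlier results of these data known, so these shares describe them and are not independent support. Without regard to a test, the groups stood fully apart with co-culture on top for 3 of the 8 (Hif1a, Egln1 and Ankrd37), as in 11.6% of all genes, and with co-culture below for 1 (Hif1an), as in 9.6%.

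**Figure D1:**
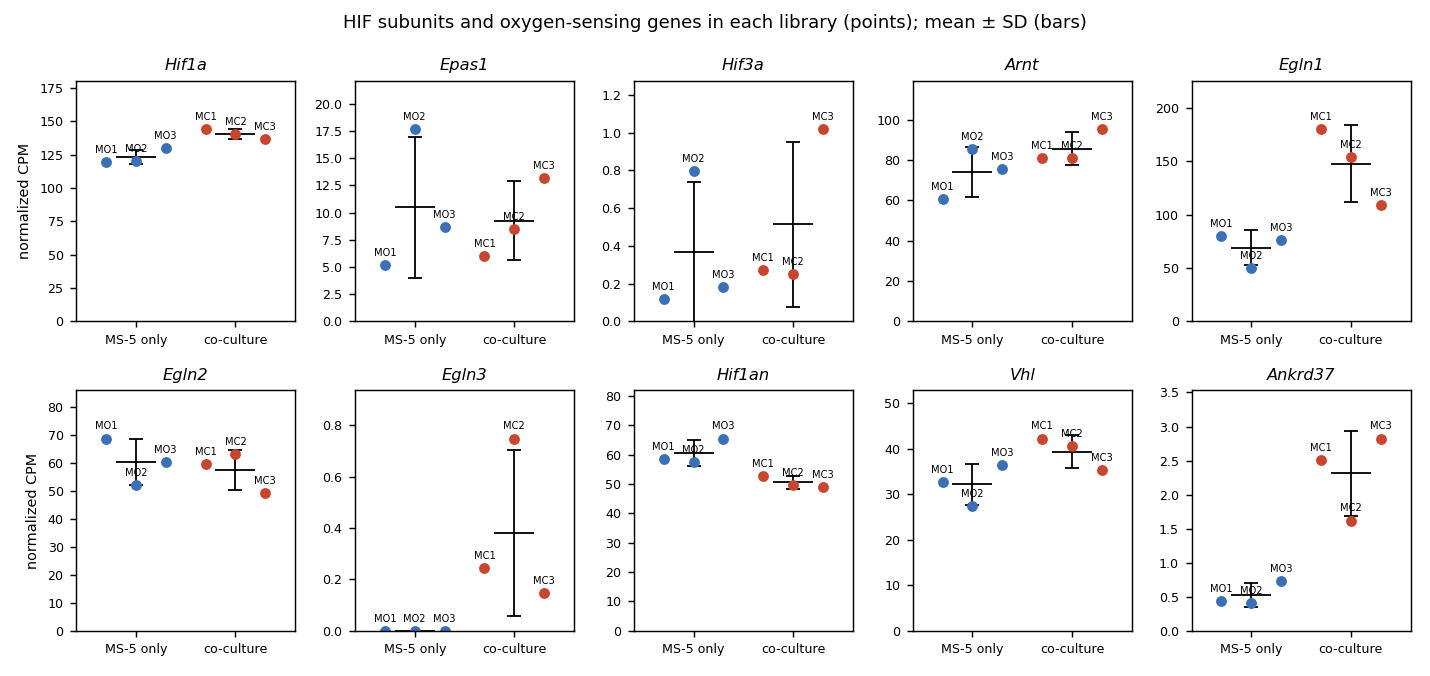
Normalised CPM (y axis, linear, from 0) of each of the 10 genes in the 3 MS-5 only libraries (blue) and the 3 co-culture libraries (red), with the group mean and SD as black bars. The groups are apart for Egln1 (50.5 to 80.2 against 109.4 to 180.2 CPM) and Ankrd37 (0.414 to 0.725 against 1.62 to 2.82 CPM), while Epas1 and Hif3a were highest in MO2 and MC3 whatever the group.

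Egln1, also called PHD2 and the main oxygen-sensing hydroxylase in most tissues (GRCm38 chr8:124908587-124949324, minus strand), was about 2.14 times as high in co-culture by mean CPM. Its normalised level, in CPM of the effective library size, was 80.2 in MO1, 50.5 in MO2 and 76.5 in MO3, and the co-culture levels were 180.2, 154.4 and 109.4 in the order MC1 to MC3. The groups did not overlap, and the lowest library of each was MO2 and MC3. The means were 69.0 ± 16.2 and 148.0 ± 35.8 CPM (SD, n = 3 each), for a log2 fold change of 1.10 with a standard error of 0.26 (adjusted p = 0.0968, edgeR). Per transcript length the MS-5 only libraries were closer together, at 25.0, 24.5 and 23.3 TPM (counts divided by transcript length, then scaled to a common total), against 56.7, 46.2 and 53.5 TPM for the co-culture group. Within the pair that stood apart, MC3 was 2.17 times MO2 in CPM, and among the other 4 libraries the ratio was 2.14. The adjusted p passed 0.1 by little: it was 0.00223 with DESeq2 and 0.00729 once a covariate marked MO2 and MC3, but 0.109 with an effective length offset and 0.203 with replicate numbers as blocks. The log2 fold change stayed between 0.91 and 1.28 over 18 alternatives, 10 of which kept the call.

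Egln2, the PHD1 gene (chr7:27158658-27166802, minus), did not move with Egln1. It stood at 68.7, 52.1 and 60.4 CPM in MS-5 only and 59.5, 63.3 and 49.4 CPM in co-culture, with overlapping groups. The ratio of MC3 to MO2 was 0.949 and that among the other 4 libraries 0.951. The log2 change was -0.07 with a standard error of 0.16 (adjusted p = 0.939, edgeR), and the sign turned when MO1 or MC3 was left out (0.05 and 0.02).

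Egln3, the PHD3 gene and in many cells a strongly inducible hydroxylase (chr12:54178981-54203860, minus), had 0 estimated counts in all 3 MS-5 only libraries and 8, 18 and 5 in MC1, MC2 and MC3. It was thus detected in every co-culture library and in no MS-5 only library, at a level near the limit of detection. Against a floor of 3 counts over the MS-5 only group, its level in co-culture was at least 8.90-fold higher, a bound that covers counting error only. MC2 gave most of these counts, and without it the bound was 5.07-fold, a value added after seeing the data. With no filter on low counts its adjusted p was 0.125 by edgeR, so it was not called. With a filter of 5 counts in 3 libraries it was 0.136 by edgeR. Egln3 passed that filter only through the co-culture libraries, so nothing is drawn from that value. MC2, the library with the most leukocyte marker signal, also had the most Egln3: its excess over MS-5 only was 3.84 times the mean excess of MC1 and MC3, where the same ratio was 1.13 for Egln1 and 0.512 for Ankrd37. Over the 6 leukocyte markers called higher (Ptprc, Irf8, Csf1r, Spi1, Coro1a and Laptm5) that ratio ran from 4.00 for Ptprc to 7.31 for Laptm5, and for the tested markers that were not called it was 1.62 (Cd68) and 0.182 (Cd53). For the markers too low to test it was 3.66 (Itgam), 11.7 (Kit), 2.76 (Tyrobp) and 6.86 (Cd34), with Tyrobp and Cd34 lower on average in co-culture. The part of leukocyte RNA in the Egln3 counts, human reads included, was not tested.

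On the per-length scale the make-up of the hydroxylase family restated the higher Egln1 level and is not a further result. Mean Egln2 was 42.2 TPM in MS-5 only and 40.7 TPM in co-culture, and Egln3 was very low. Egln1 held 39.0%, 31.4% and 40.7% of the summed TPM of Egln1, Egln2 and Egln3 in MO1 to MO3, against 62.1%, 56.2% and 50.8% in MC1 to MC3. The lowest co-culture library was above the highest MS-5 only library. The difference of 19.3 percentage points gave p = 0.1 in a two-sided exact permutation test, which is the smallest p that 3 against 3 allows, and this share was taken up after its values were seen. The ratio of Egln1 to Egln2 TPM went from 0.640, 0.457 and 0.687 to 1.64, 1.29 and 1.03, which are the same values put another way, so Egln2 was the more abundant in every MS-5 only library and Egln1 in every co-culture library. Egln3 made up 0.116%, 0.375% and 0.0930% of the family in MC1, MC2 and MC3.

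**Figure D2:**
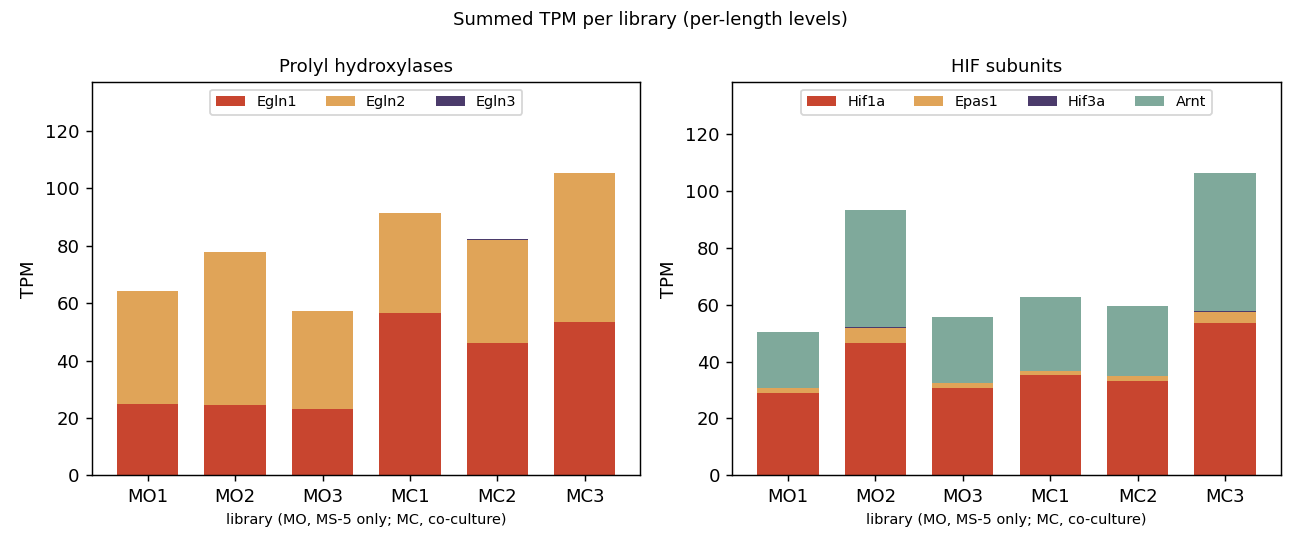
Summed TPM (y axis) per library, stacked by gene, for the prolyl hydroxylases (left) and the HIF subunits (right); MO libraries are MS-5 only and MC libraries co-culture. The Egln1 part is 23.3 to 25.0 TPM in the MO libraries and 46.2 to 56.7 TPM in the MC libraries, Hif1a and Arnt are tallest in MO2 and MC3, and Egln3 and Hif3a are too low to see or nearly so.

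Ankrd37 (chr8:45996902-46005707, minus) had the largest fold change of the 8, from a low level. Its estimated counts were 11, 13 and 16 in MO1, MO2 and MO3 and 82, 39 and 97 in MC1, MC2 and MC3, which is 0.439, 0.414 and 0.725 CPM against 2.50, 1.62 and 2.82 CPM. All co-culture libraries were above all MS-5 only libraries, with MC2 the lowest of them. The means were 0.526 ± 0.173 and 2.32 ± 0.62 CPM (SD, n = 3 each), a log2 fold change of 2.14 with a standard error of 0.42 (adjusted p = 0.0752, edgeR). MC3 was 6.82 times MO2 in CPM, and among the other 4 libraries the ratio was 3.54. A covariate marking MO2 and MC3 gave an adjusted p of 0.0208, and it was 0.102 without that pair, a comparison of 2 against 2 chosen after seeing the data, and it was 0.159 with an effective length offset. The call was kept in 8 of 18 alternatives, with a log2 fold change of 1.51 to 2.43.

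Ankrd37 also shares bases with its neighbours. Exons of Ankrd37-201, its 927-base coding transcript, overlap by 186 bases those of Lrp2bp and by 57 bases those of Ufsp2, both on the opposite strand. Lrp2bp was counted at 4, 12 and 3 in MO1 to MO3 and at 31, 14 and 37 in MC1 to MC3 (log2 fold change 1.90, standard error 0.55, adjusted p = 0.163, edgeR), so MC1 and MC3 were high for both genes. Ufsp2, with 1105 to 1714 counts, changed by -0.03 (adjusted p = 0.983, edgeR). The library kit kept strand but the setting used for counting is not given in the sources used here, so the sharing of reads between Ankrd37 and Lrp2bp was not tested.

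**Figure D3:**
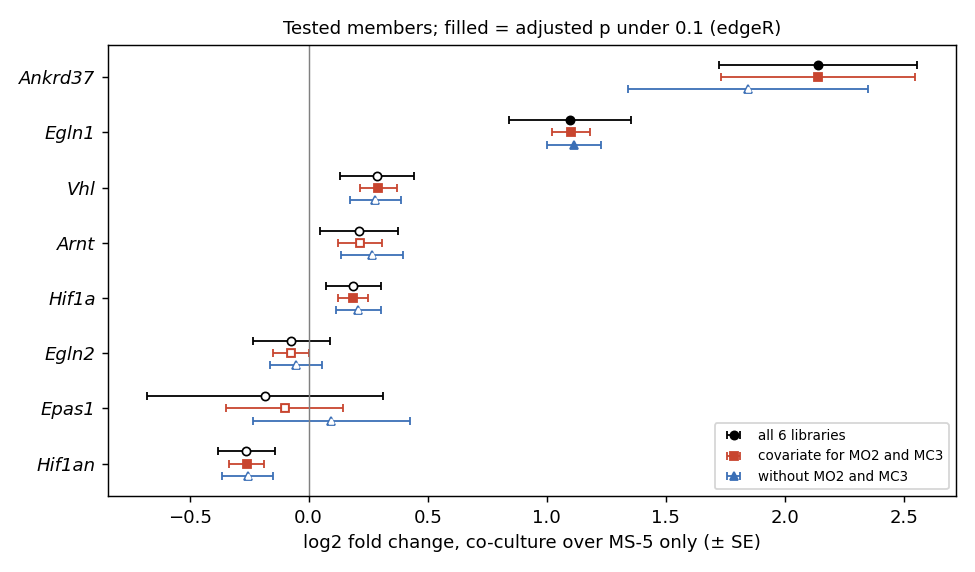
Log2 fold change of co-culture over MS-5 only (x axis, with standard error) of the 8 tested genes from edgeR on all 6 libraries (black circles), with a covariate for MO2 and MC3 (red squares) and without that pair (blue triangles); filled symbols have an adjusted p under 0.1. Ankrd37 (2.14) and Egln1 (1.10) lie furthest to the right in all 3 fits, and Hif1a, Vhl and Hif1an become filled only with the covariate.

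None of the 3 HIF subunits tested (Hif1a, Arnt and Epas1) was called, and Hif3a was too low to test. Hif1a, which encodes the alpha subunit HIF-1α found in nearly all cells (chr12:73901375-73947530, plus), stood at 119.7, 120.5 and 129.6 CPM in MS-5 only and 144.1, 140.2 and 136.9 CPM in co-culture. MC3 was 1.14 times MO2 in CPM, and the ratio among the other 4 libraries was 1.14 as well. The groups did not overlap in CPM, though the step was small, and in TPM they did overlap, since MO2 reached 46.3 against 33.2 to 53.4 in co-culture. With a log2 fold change of 0.19 and a standard error of 0.11 it was not called (adjusted p = 0.551, edgeR).

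Arnt (HIF-1β, chr3:95434388-95497240, plus), the partner that every HIF alpha subunit needs to bind DNA, was at 60.7, 85.5 and 75.6 CPM in MS-5 only and 80.7, 80.8 and 95.2 CPM in co-culture. MO2 lay within the range of the co-culture libraries, MC3 was 1.11 times MO2 and the ratio among the other 4 was 1.19. On the log2 scale the difference was 0.21 (standard error 0.17, adjusted p = 0.673, edgeR). The ratio of Hif1a to Arnt TPM was 1.10 to 1.48 over the 6 libraries, with p = 0.8 between the groups in an exact permutation test.

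Epas1, the HIF-2α gene known from endothelium and kidney interstitium (chr17:86753700-86833410, plus), varied more between libraries than between groups. It was at 5.15, 17.7 and 8.66 CPM in MO1, MO2 and MO3 and 6.04, 8.52 and 13.2 CPM in MC1, MC2 and MC3. MO2 and MC3 were the highest of their groups, and MC3 was 0.746 times MO2 where the ratio among the other 4 libraries was 1.05. The difference on the log2 scale was -0.18 with a standard error of 0.50 (adjusted p = 0.952, edgeR) and ran from -0.53 to 0.42 as single libraries were left out, so that no direction can be given.

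Hif3a, whose products can compete with the other alpha subunits (chr7:17031507-17062427, minus), had 3, 25 and 4 estimated counts in MO1 to MO3 and 9, 6 and 35 in MC1 to MC3. Here too MO2 and MC3 were highest and the groups overlapped. Among the HIF alpha subunits Hif1a took 94.1%, 89.0% and 94.7% of the summed TPM in MO1 to MO3 and 96.5%, 95.2% and 92.3% in MC1 to MC3, with p = 0.5 in an exact permutation test. Hif1a was thus the leading alpha transcript in every library, at 8.48 to 29.0 times the TPM of Epas1.

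Neither Hif1an nor Vhl, which act on the alpha subunits beside the prolyl hydroxylases, was called. Hif1an, or FIH (chr19:44562850-44576274, plus), was at 58.6, 57.5 and 65.5 CPM in MO1 to MO3 and 52.9, 49.6 and 49.1 CPM in MC1 to MC3. Every co-culture library was the lower in CPM, while in TPM the groups overlapped. MC3 was 0.853 times MO2, and the ratio among the other 4 libraries was 0.826. The log2 fold change of -0.26, with a standard error of 0.12, was not called (adjusted p = 0.393, edgeR).

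Vhl (chr6:113623959-113631633, plus), the substrate-binding subunit of the ligase that removes hydroxylated HIF alpha, was at 32.7, 27.5 and 36.4 CPM in MS-5 only and 42.2, 40.5 and 35.3 CPM in co-culture. MC3 fell below MO3, so the groups overlapped, with MC3 at 1.28 times MO2 and a ratio of 1.197 among the other 4. It was not called, with a log2 change of 0.29 (standard error 0.16 and adjusted p = 0.486, edgeR).

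Hif1a, Hif1an and Vhl passed the threshold in 1 alternative only, the fit with a covariate for MO2 and MC3. In that fit, with Egln1 and Ankrd37 counted, 4 of the 8 genes were called higher and 1 lower, where the background was 13.9% of all genes higher and 16.4% lower. The log2 fold changes in that fit were 0.19 for Hif1a (adjusted p = 0.0866, edgeR), -0.26 for Hif1an (adjusted p = 0.0536) and 0.29 for Vhl (adjusted p = 0.0441), the same sizes as without the covariate.

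The 10 genes were also set in order of their mean TPM within each group. In MS-5 only Egln2 led with 42.2 ± 10.2 TPM (SD, n = 3), followed by Hif1a (35.4 ± 9.5), Arnt (27.9 ± 11.5), Egln1 (24.3 ± 0.90), Vhl (21.7 ± 2.3) and Hif1an (12.6 ± 3.1). Each of the neighbours from Egln2 down to Vhl overlapped in range, and Vhl and Hif1an did not. Below these came Epas1 (2.98 ± 2.15), Ankrd37 (1.12 ± 0.54), Hif3a (0.119 ± 0.148) and Egln3 at 0, with overlapping ranges for Epas1 and Ankrd37. In co-culture Egln1 led with 52.1 ± 5.4 TPM, and Egln2 (40.7 ± 9.6), Hif1a (40.6 ± 11.1), Arnt (33.0 ± 13.3), Vhl (24.5 ± 5.6) and Hif1an (10.5 ± 2.7) followed, where neighbours from Egln1 down to Vhl again overlapped and Vhl and Hif1an did not. Ankrd37 (5.69 ± 3.96) overlapped Hif1an above it and Epas1 (2.32 ± 1.57) below it, and Egln3 (0.171 ± 0.119) overlapped Hif3a (0.148 ± 0.179).

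The files hold 40 transcripts of the 10 genes, of which 15 passed the filter, and 0 were called between the groups. Over all 34440 transcripts tested edgeR likewise called 0 (0%), with 2131 at an unadjusted p under 0.05, and of the 15 this was so for 3. These were Egln1-201, the sole Egln1 transcript (log2 fold change 1.14, standard error 0.27, adjusted p = 0.296), Ankrd37-201 (2.75, standard error 0.63, adjusted p = 0.279) and Hif1a-201 (0.32, standard error 0.12, adjusted p = 0.688). Ankrd37-201 had counts of 8, 4 and 7 in MO1 to MO3 and 66, 35 and 54 in MC1 to MC3. It passed the filter through the co-culture libraries, so its p is not taken as support. No other tool was run on transcripts. Once a covariate marked MO2 and MC3, Egln1-201 was the sole call among the 15 (adjusted p = 0.0804), where 138 of all 34440 transcripts (0.401%) were called.

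Ankrd37-201, the coding transcript, was at 0.466, 0.259 and 0.465 TPM in MS-5 only and 2.92, 2.03 and 3.57 TPM in co-culture. The groups were well apart. The retained intron Ankrd37-204 was at 0, 0 and 0.943 TPM and 1.33, 0 and 4.72 TPM, so that it was listed at 0 in MC2 and highest in MC3.

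Hif1a was divided between 2 coding transcripts of like size, Hif1a-201 and Hif1a-202. Hif1a-201 held 52.7%, 57.4% and 52.3% of their summed TPM in MO1 to MO3 and 58.0%, 57.3% and 58.5% in MC1 to MC3 (exact permutation p = 0.2). MO2 fell among the co-culture values. Arnt was split between Arnt-202 and Arnt-203, at 14.2 ± 7.1 and 10.6 ± 1.3 TPM in MS-5 only and 16.4 ± 7.6 and 12.0 ± 2.4 TPM in co-culture (SD, n = 3 each).

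Several minor transcripts followed the library pair rather than the group. Egln2-204, a processed transcript of 439 bases, was at 0.175, 7.04 and 0.193 TPM in MO1, MO2 and MO3 and 0.529, 0.340 and 6.76 TPM in MC1, MC2 and MC3. MO2 and MC3 were far above the rest in both groups. Taken over all transcripts of the 10 genes that do not code for protein, the share of their TPM was 12.0% in MO2 and 12.3% in MC3, against 4.46% to 7.16% in the other 4 libraries.

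**Figure D4:**
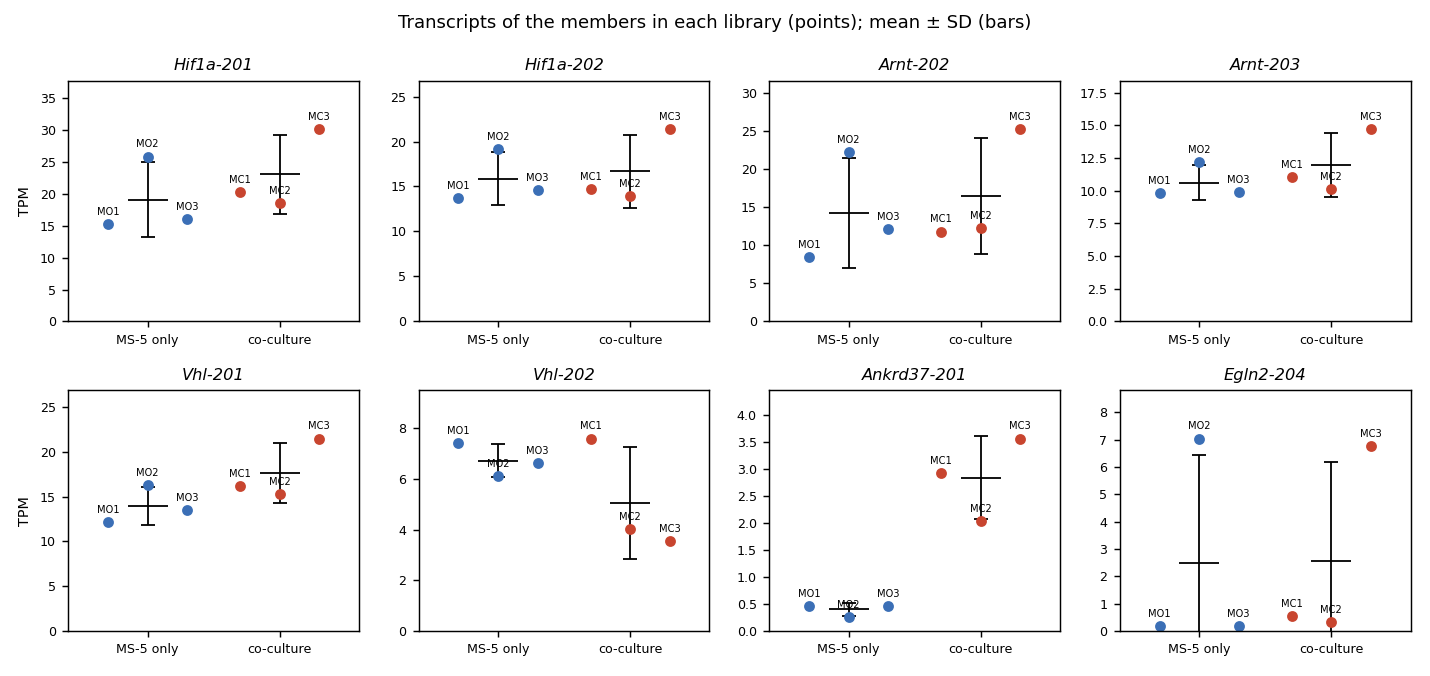
TPM (y axis, linear, from 0) of 8 transcripts of Hif1a, Arnt, Vhl, Ankrd37 and Egln2 in the 3 MS-5 only libraries (blue) and 3 co-culture libraries (red), with mean and SD as black bars. Ankrd37-201 separates the groups (0.259 to 0.466 against 2.03 to 3.57 TPM), while Egln2-204 is near 7 TPM only in MO2 (7.04) and MC3 (6.76).

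Of 24 other genes that act on HIF (the coactivators Ep300 and Crebbp, Cited2, which competes with HIF alpha for them, the elongin and cullin subunits of the Vhl ligase, Siah ligases, chaperones and others), 22 were tested and edgeR called 0 at a background of 3.71% higher and 0.666% lower. Of these, 5 had an unadjusted p under 0.05 by edgeR, where 1885 of all 13221 genes did. DESeq2 called 2, Bhlhe40 higher and Cul2 lower, a share near its background of 6.88% higher and 2.71% lower. The log2 fold changes were positive for 14 and negative for 8, with a median of 0.04. The largest in size were -0.73 for Siah1b, a ubiquitin ligase of the family that degrades prolyl hydroxylases (standard error 0.25, adjusted p = 0.243, edgeR), 0.51 for Bhlhe40, a transcriptional repressor induced by HIF (0.14, adjusted p = 0.148), and -0.43 for Cul2, the cullin of the Vhl ligase (0.14, adjusted p = 0.205). In CPM the groups stood fully apart for these 3 genes and for 5 of the 22 in all, 3 higher (11.6% of all genes) and 2 lower (9.6%), and in TPM they overlapped for Cul2 and Bhlhe40. With the covariate for MO2 and MC3 6 of the 22 were called, 3 higher and 3 lower, where 13.9% and 16.4% of all genes were.

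HIF target genes outside the 10 included many that were higher in co-culture. Of 20 listed, 19 were tested. By edgeR 10 were called higher (3.71% of all genes) and 0 lower (0.666%), and DESeq2 also called 0 lower. An unadjusted p under 0.05 was found by edgeR for 15, where 1885 of all 13221 genes had one. In 15 the groups stood fully apart with co-culture on top (11.6% of all genes). Their median log2 fold change was 0.93, beside -0.02 over all genes tested. The list was chosen with earlier results of these data known, so these shares describe it and are not independent support. Without MO1, MO2 or MO3 the count of calls was 0, as over all genes. It was 5 with replicate numbers as blocks, where 443 of all 13221 genes were called higher. At an adjusted p under 0.05 it was 2, and these 2 were the only calls among all 13221 genes. It was 15 with DESeq2 (6.88% of all genes) and 17 when a covariate marked MO2 and MC3 (13.9%). Without that pair it was 16 of 18 tested, where 1087 of all 13047 genes were called higher. The largest were Bnip3, a mitophagy receptor (2.68, standard error 0.19, adjusted p = 0.0269, edgeR), Pdk1, the kinase that inhibits pyruvate dehydrogenase (2.19, 0.15, adjusted p = 0.0269), and the glucose transporter Slc2a1 (1.42, 0.17, adjusted p = 0.0734). Beside them Egln1 (1.10) and Ankrd37 (2.14) lay within the range of the 10 called targets. Car9, often used as a marker of hypoxia, was not called (-0.42, standard error 0.56, adjusted p = 0.854, edgeR), nor was Pfkfb4 (-0.00, standard error 0.22, adjusted p = 0.998).

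**Figure D5:**
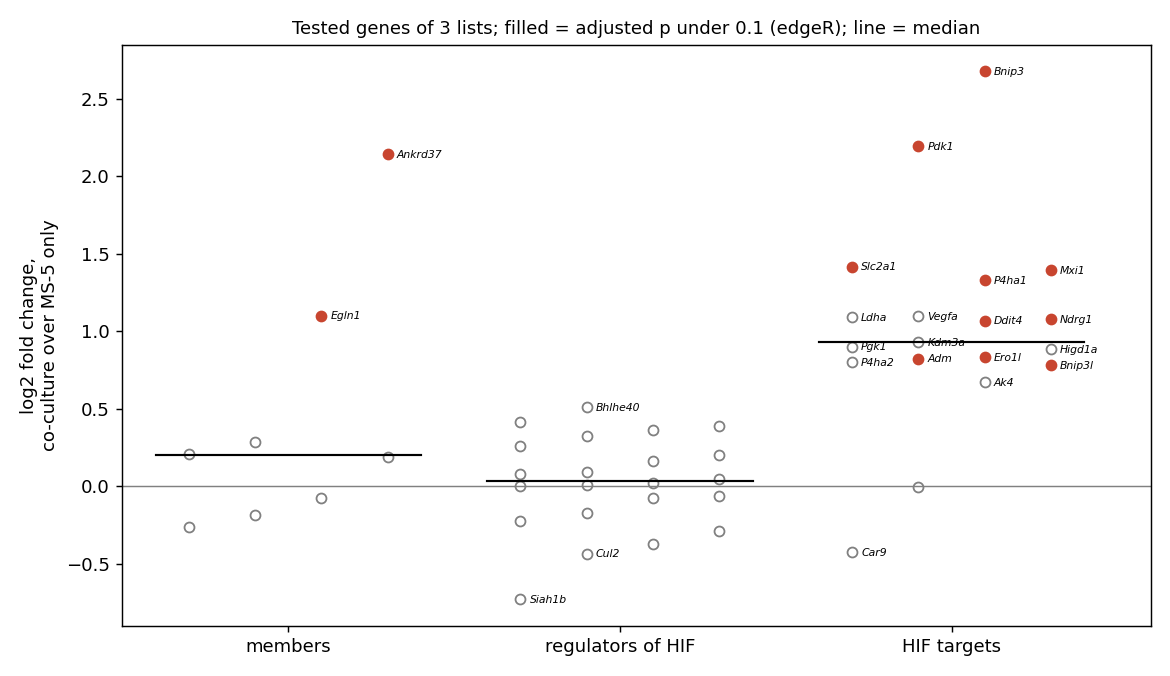
Log2 fold change of co-culture over MS-5 only (y axis) of each tested gene among the 10 genes described here, 22 other regulators of HIF and 19 HIF targets; filled points have an adjusted p under 0.1 (edgeR) and the line is the median. The medians are 0.20, 0.04 and 0.93, with 2, 0 and 10 filled points.

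Genes were also ranked by how like their profile over the 6 libraries was to that of Egln1, Ankrd37 or Hif1a. Likeness was the root mean square difference of log2 CPM after centring each profile on its own mean, over 11975 tested genes with a mean of at least 1 CPM. For Egln1 the nearest were the glycolytic enzyme genes Gpi1 (0.0172) and Tpi1 (0.0247) and then Gm12286 (0.0714), a processed pseudogene. Gpi1 and Tpi1 had log2 fold changes of 1.12 and 1.11 with standard errors of 0.29 and 0.30, beside 1.10 for Egln1, and were not called (adjusted p = 0.121 and 0.134, edgeR), and MO2 and MC3 were the lowest of their groups in both. For Ankrd37 the nearest were Pdk1 (0.244), Lrtm2 (0.334) and Nos2 (0.370), at a distance more than 10 times that of Gpi1 from Egln1. For Hif1a they were Arfip1 (0.0280), Bmt2 (0.0291) and Ube2b (0.0300), none of which was called.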

How the data were processed

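Transcript abundances were deposited per library. The study's methods state a stranded mRNA kit, FastQC and Kallisto on a GRCm38 mouse cDNA index (the submitters' processing notes give FastQC 0.11.7, kallisto 0.43.0 and sleuth 0.30.0, and mm10); whether strand was used in counting is not given in the sources used here. The authors deposited estimated counts, TPM (scaled by Kallisto per effective length) and lengths per transcript. Differential results of the authors were not used.

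Estimated counts and TPM of 116728 of 118489 transcripts were matched to GENCODE M21 and summed per gene (1761 unmatched transcripts held 0.477% to 0.562% of counts). Rounded counts were tested in R 4.3.3 with edgeR 4.0.16 (filterByExpr, TMM, quasi-likelihood test), 3 co-culture against 3 MS-5 only libraries, with Benjamini-Hochberg adjustment over all genes or transcripts and a threshold of 0.1. CPM are per TMM-scaled library, and standard errors are the log2 fold change over the root of F. Shares and ratios of TPM were compared by two-sided exact permutation (smallest p 0.1). The steps were tested on simulated data. Alternatives used limma 3.58.1 and DESeq2 1.42.0. The covariate for MO2 and MC3 came from reading by eye the study's principal component plot, whose text does not set these libraries apart.

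The genes and lists were chosen with earlier results of these data known. All 10 genes are named, and of the regulator and target lists every gene past the threshold or, above 6, the 3 with the largest rise and the 3 with the largest fall, or, with none, the 3 with the largest change in size; Car9, Pfkfb4 and the leukocyte markers were named after their values were seen. For called genes and Hif1a the 3 genes most alike are named. Depth was 23978881 to 35694987 estimated counts per library.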

Additional observations from a re-analysis of the deposited data

How the results depend on the processing

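Of the 10 genes, 2 were called with all libraries. The count was the same with DESeq2's size factors, library size alone, DESeq2's Wald test and no filter. It was 1 (Egln1) with limma on log2(TPM + 0.5), log2(TPM + 0.1) or log2(TPM + 1), 1 (Ankrd37) with a filter of 5 counts in 3 libraries, 0 with the effective length offset, 5 with the covariate for MO2 and MC3, 1 (Egln1) without MO2 and MC3, chosen after seeing the data, and 0 at an adjusted p under 0.05. As single libraries were left out it ran from 0 to 1: it was 0 without MO1, MO2, MO3 or MC1, 1 without MC2 (Ankrd37) and 1 without MC3 (Egln1). Leaving out any MS-5 only library took the calls over all genes from 579 to 0. Over all genes the calls were 1268 with DESeq2, 356, 506 and 224 with limma, 3999 with the covariate and 1702 without MO2 and MC3. They were 601 with the filter of 5 counts in 3 libraries and 490 with the effective length offset. At an adjusted p under 0.05 only 2 of all 13221 genes were called.

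The fit with the replicate number as a replicate block called 1 of the 10 genes, Ankrd37 (adjusted p = 0.0977, edgeR), and 444 genes in all. Deviations of same-numbered libraries correlated over genes at 0.53, -0.29 and -0.52, and MO2 with MC3 at 0.73, so the numbers were not taken as pairs.

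HIF regulators, 0 called, gave 2 of 22 with DESeq2's Wald test (1268 of 13221 genes in all), 6 with the covariate (3999 of 13221) and 4 without MO2 and MC3 (1702 of 13047). HIF targets, 10 called, gave 5 under the replicate block (444 genes in all), 17 with the covariate and 16 without MO2 and MC3. They gave 2 at 0.05, where 2 of 13221 genes were called in all. With single libraries left out they gave 0 to 10 (0 to 549 genes in all). Transcripts, 0 called, gave 1 with the covariate.

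Epas1 changed sign without MO2 and MC3 (0.10) and ran from -0.53 to 0.42 with single libraries left out, and Egln2 had -0.17 to 0.052 (0.052 without MS-5 only replicate 1). The cause was not tested. With 3 libraries a group, counts of at most 97 for Ankrd37, 18 for Egln3 and 35 for Hif3a limit what can be told of these genes.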
